A study of Cavia porcellus with 10 samples.

Results

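The transcripts examined here encode components and soluble regulators of the complement system in the cervix of the guinea pig. They were chosen by gene name from a table of 25028 Ensembl genes, of which 20251 have a name. Of 9 names sought, 6 have a row, namely C1R, C1S, C2, C5, C7 and SERPING1. C3, C6 and CFB were not matched by these names, and C6 and CFB were not analysed here. A row named CO3_CAVPO, which is the UniProt entry name of guinea pig complement C3, is described beside the 6 genes and is not counted among them.

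Complement is a cascade of plasma and tissue proteins. In the classical pathway the C1 complex binds antibody or altered surfaces, and its proteases C1r and C1s cleave C4 and C2, which form a convertase for C3. Cleaved C3 marks surfaces for uptake by phagocytes and leads to the cleavage of C5, after which C5b, C6, C7, C8 and C9 assemble into the membrane attack complex. SERPING1 encodes the C1 inhibitor, a serpin that inactivates C1r and C1s. The liver makes most of the plasma proteins, and fibroblasts, macrophages and epithelia also transcribe many of them.

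Cervical RNA was sequenced from 10 Hartley guinea pigs. The stages are non-pregnant in estrus (NP, 3 females), 3 females at mid-pregnancy with an estimated gestation of 43.6 ± 0.5 days (MT) and 4 late in pregnancy but not in labor, at 65.2 ± 1.2 days (LT). Gestation was estimated from fetal size. Tissue was taken from the vaginal portion of the cervix, and each animal is 1 library. Levels are given in TPM, the share of transcripts after scaling to gene length and to the size of the library, so that levels of different genes of an animal can be set side by side. A log2 change is the mean of log2(TPM + 1) in the later stage minus that in the earlier stage, which understates changes of low values, and its adjusted P is from limma with Benjamini-Hochberg adjustment over 12645 genes. These genes have a stage mean of 3 TPM or more in any stage, the operational threshold of expression in the study. A log2 change with an adjusted P under 0.05 is called a change.

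Between 18730665 and 27881572 reads were counted per animal. As a check of the labelled tissue, 8 of 8 fibroblast, 8 of 8 smooth muscle and 9 of 9 squamous epithelium markers with a row reached the threshold in any of the stages. NP replicate 1 stood apart from the other NP animals. Its summed squamous markers were at 3301 TPM against 1093 and 1054 TPM, its smooth muscle markers at 30766 TPM against 10523 and 8168 TPM, and its macrophage markers at 222 TPM against 502 and 389 TPM. The log2 changes of the complement genes that this animal moves are also given without it. In bulk tissue, fewer cells of a type and less RNA per cell cannot be told apart.

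The complement genes fell into 3 levels. SERPING1, C1S, C1R and C2 were abundant in every stage, C7 was lower, with stage means between 4.96 and 15.3 TPM, and C5 was nearly absent. SERPING1 exceeded C1S, and C1S exceeded C1R, in 10 of 10 animals. C1R exceeded C2 in 9 of 10 animals, and C2 exceeded C7 in 10 of 10. By its stage mean SERPING1 ranked 321 among the tested genes in NP, 417 in MT and 461 in LT. The summed TPM of the 5 genes above the threshold ranged from 330 to 1086 in NP, from 453 to 754 in MT and from 572 to 801 in LT. The sum was thus more spread out among the NP animals than in either stage of pregnancy.

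**Figure D1:**
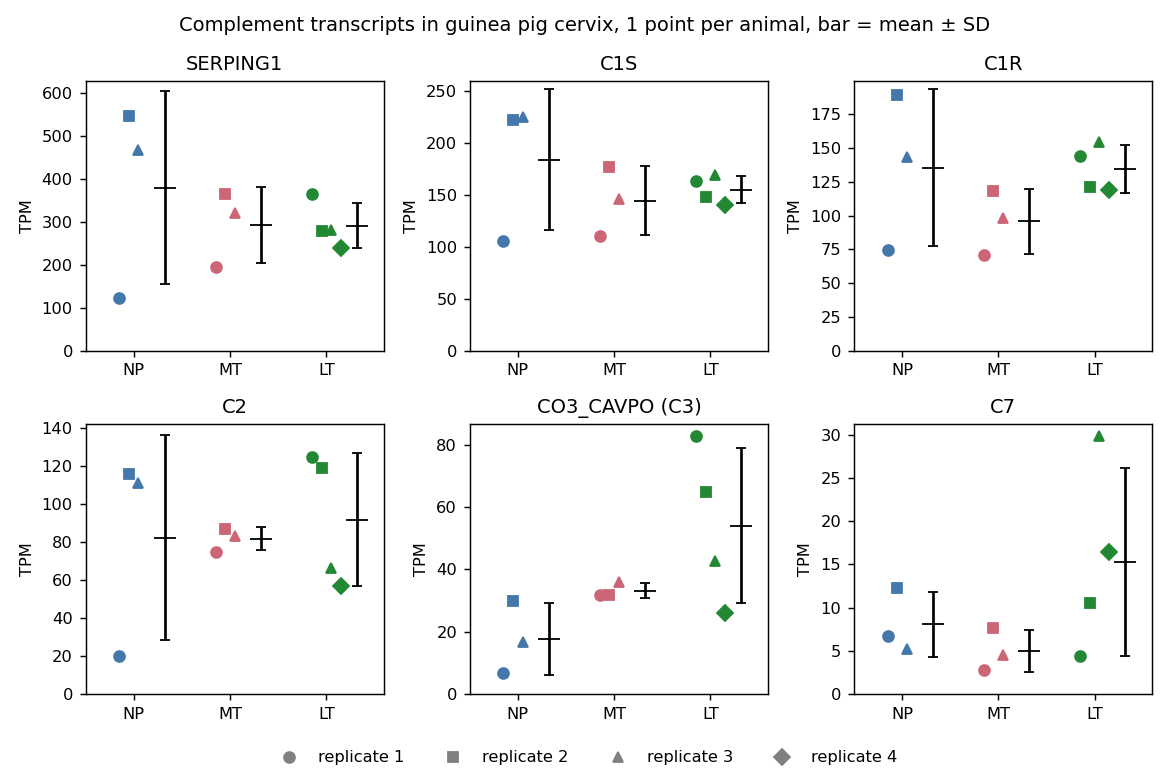
TPM (vertical axes, from 0) of 5 complement genes and of the row CO3_CAVPO in 3 NP, 3 MT and 4 LT animals. Each point is 1 animal, its shape gives the replicate number, and the bar beside each group is the mean with its SD. NP replicate 1 is the lowest NP animal for every gene shown except C7.

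None of the 5 tested genes passed the test between any 2 stages. In limma 0 of 5 were called from NP to MT, where 18.5% of all tested genes were called, 0 of 5 from MT to LT, where 29.4% were called, and 0 of 5 from NP to LT, where 53.1% were called. With an unadjusted P under 0.05 the numbers were 0, 1 and 0, the exception being C7 from MT to LT. The edgeR quasi-likelihood fit to read counts also called 0, 0 and 0, with 0, 2 and 0 at an unadjusted P under 0.05. DESeq2 called 0, 2 and 0, the pair being C1R and C7 from MT to LT, where 36.2% of the genes with an adjusted P in DESeq2 were called, with 0, 2 and 1 at an unadjusted P under 0.05. The median of the log2 changes of the 5 genes was -0.29 from NP to MT, 0.12 from MT to LT and 0.08 from NP to LT. For all tested genes it was -0.14, -0.16 and -0.28. Scaling by median ratios moved these to 0.00, 0.01 and 0.03, so that the split of all called genes into higher and lower was 793 and 1549, 851 and 2872, and 1417 and 5301 in TPM, and 1378 and 904, 1848 and 1868, and 3330 and 2955 after scaling.

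As the study compares stages by analysis of variance on square-root transformed TPM, that statistic was also tested by its exact permutation over the 4200 assignments of the animals to the 3 stages. After adjustment over all tested genes 0 of 5 complement genes passed, where 47.1% of the tested genes did, and 0 of 5 had an unadjusted P under 0.05. Without NP replicate 1 the exact test passed for C1R (adjusted P = 0.0439) and C1S (adjusted P = 0.0420), where 57.5% of all tested genes passed.

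**Figure D2:**
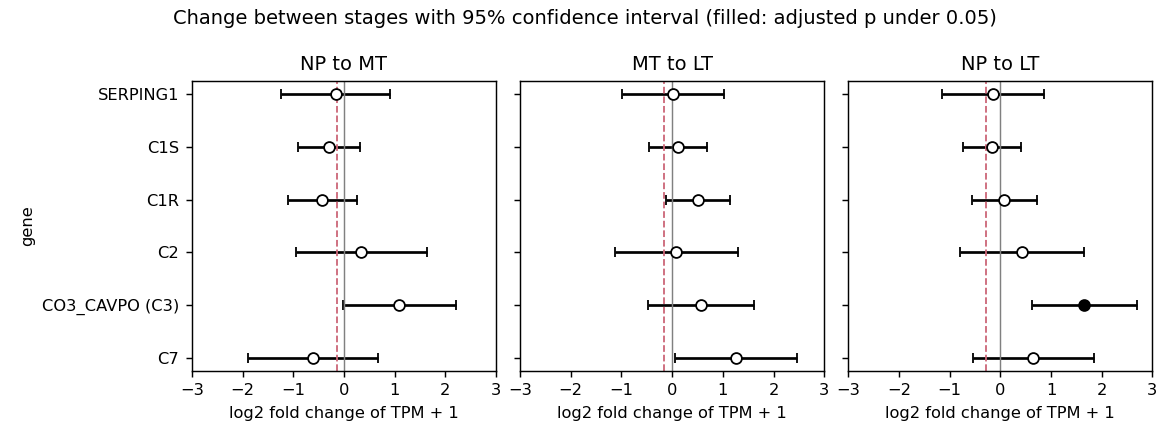
Log2 change of TPM + 1 (horizontal axes) with its 95% confidence interval for 5 complement genes and the row CO3_CAVPO in the 3 comparisons. Filled points have a limma adjusted P under 0.05, the grey line is at 0 and the dashed red line is the median of all tested genes. The filled point is CO3_CAVPO from NP to LT, at a log2 change of 1.66.

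C1R (ENSCPOG00000008118) encodes the protease that is activated when C1 binds its target and that then activates C1s. It was at 74.2, 189 and 143 TPM in the NP animals, at 70.6, 118 and 98.1 TPM in MT and at 144, 121, 155 and 119 TPM in LT. Every LT animal thus lay above every MT animal, although the lowest LT animal and the highest MT animal were less than 1 TPM apart. Of the 5 genes, 0 had stages without overlap between NP and MT, where 34.9% of all tested genes did, 1 (C1R) between MT and LT, where 46.3% did, and 0 between NP and LT, where 52.4% did. The stage means were 136 ± 57.9 TPM for NP (SD, n = 3), 95.7 ± 24.0 TPM for MT (SD, n = 3) and 135 ± 17.5 TPM for LT (SD, n = 4). The log2 change of C1R from MT to LT was 0.51 (standard error 0.29, limma adjusted P = 0.197), with a 95% confidence interval from -0.13 to 1.15. In DESeq2 on the counts it was 0.66 with an adjusted P of 0.0388, and over all alternative settings the adjusted P ranged from 0.0176 to 0.492. From NP to MT the log2 change of C1R was -0.43 (limma adjusted P = 0.343), and from NP to LT it was 0.08 (limma adjusted P = 0.827).

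C1S (ENSCPOG00000008905) encodes the protease of the C1 complex that cleaves C4 and C2. Its values were 105, 222 and 224 TPM in the NP animals, 110, 177 and 146 TPM in those of MT and 164, 147, 169 and 140 TPM in those of LT. The LT animals were close to each other and lay within the range of the NP animals. The means were 184 ± 68.2 TPM for NP (SD, n = 3), 144 ± 33.2 TPM for MT (SD, n = 3) and 155 ± 13.4 TPM for LT (SD, n = 4). Its log2 change was -0.29 from NP to MT (95% confidence interval -0.90 to 0.32, limma adjusted P = 0.473) and 0.12 from MT to LT (-0.45 to 0.69, limma adjusted P = 0.741). From NP to LT it was -0.17 (-0.74 to 0.40, limma adjusted P = 0.599). These intervals leave room for decreases to 0.535 times and increases to 1.62 times.

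C1R and C1S derive from a common ancestral gene and follow each other without another gene between them in the RefSeq table of the assembly mCavPor4.1. Of the related pairs considered, levels of both genes are given for this pair, since CFB and C6 were not analysed here and C5 was under its limit of detection. The ratio of C1S to C1R within an animal was 1.42, 1.17 and 1.57 in NP, 1.56, 1.49 and 1.49 in MT and 1.14, 1.22, 1.09 and 1.18 in LT. In LT the ratio was below that of each MT animal, with means of 1.16 ± 0.0553 (SD, n = 4) and 1.51 ± 0.0434 (SD, n = 3). The NP animals spanned from the LT range to above the MT range. The ratio was compared without a test.

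SERPING1 (ENSCPOG00000025775), the inhibitor of both proteases, was at 124, 547 and 468 TPM in NP, at 195, 365 and 320 TPM in MT and at 364, 279, 281 and 239 TPM in LT. Replicate 1 was the lowest animal of its stage in NP and in MT, and the highest in LT. The means were 380 ± 225 TPM for NP (SD, n = 3), 293 ± 88.1 TPM for MT (SD, n = 3) and 291 ± 52.6 TPM for LT (SD, n = 4). Between MT and LT its log2 change was 0.02 (95% confidence interval -0.98 to 1.03, limma adjusted P = 0.975), which covers decreases to 0.506 times and increases to 2.04 times. It was -0.16 from NP to MT (-1.24 to 0.91, limma adjusted P = 0.837) and -0.14 from NP to LT (-1.14 to 0.87, limma adjusted P = 0.812).

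The ratio of SERPING1 to C1R, chosen after the values were seen, was 1.67, 2.89 and 3.27 in NP and 2.75, 3.08 and 3.26 in MT. In LT it was 2.53, 2.31, 1.82 and 2.02, each below every MT animal. The ratio of SERPING1 to C1S overlapped between these stages, from 1.76 to 2.20 in MT and from 1.67 to 2.23 in LT. Inhibitor transcript thus exceeded that of each protease in all 10 animals.

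**Figure D3:**
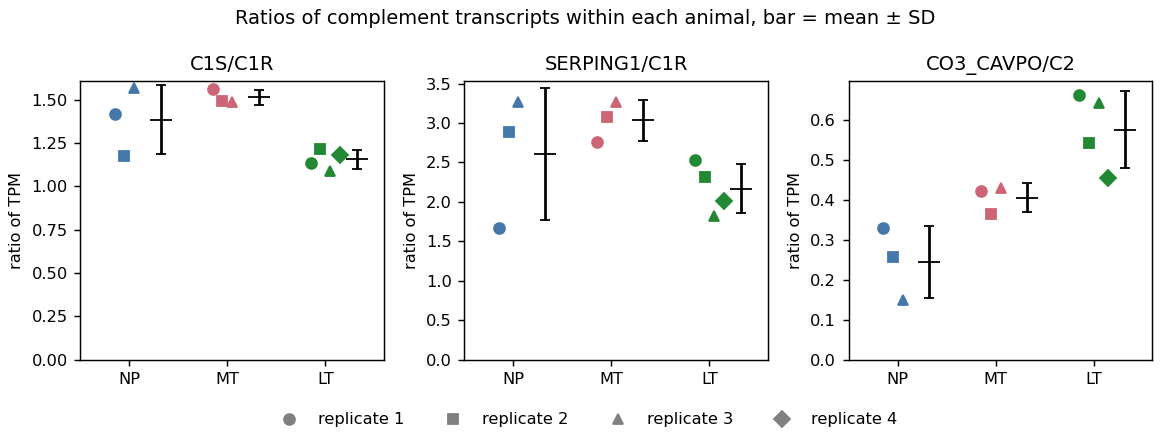
Ratio of TPM within each animal (vertical axes, from 0) for C1S to C1R, SERPING1 to C1R and CO3_CAVPO to C2, by stage, with the mean and SD beside the points. For C1S to C1R the 4 LT animals lie between 1.09 and 1.22 and the 3 MT animals between 1.49 and 1.56.

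NP replicate 1 was low for C1R, C1S, SERPING1 and C2, and not for C1QB, a chain of C1q, at 91.7 TPM against 89.5 and 75.0 TPM. Its level relative to the mean of the other NP animals was 0.447 for C1R, 0.471 for C1S, 0.244 for SERPING1 and 0.176 for C2. The median of this ratio over all tested genes was 0.844, and the share of tested genes with a lower ratio was 5.99% for C1R, 6.81% for C1S, 2.36% for SERPING1 and 1.61% for C2. For C7 the ratio was 0.771, with 35.8% of the tested genes lower. Without NP replicate 1 the NP means were 166 TPM for C1R, 223 TPM for C1S, 507 TPM for SERPING1 and 113 TPM for C2. In that fit C1R, C1S and SERPING1 were lower in MT than in NP, with log2 changes of -0.81 (limma adjusted P = 0.0237), -0.65 (limma adjusted P = 0.0223) and -0.83 (limma adjusted P = 0.0378), where 25.9% of all tested genes were lower and their median was -0.20. When NP replicate 1 was left out and the TPM values were also scaled by median ratios, the values were -0.58, -0.43 and -0.61, with adjusted P of 0.0873, 0.111 and 0.116. In edgeR on the counts without this animal they were -0.60, -0.43 and -0.59, with adjusted P of 0.0872, 0.118 and 0.126. The 3 differences had the same direction in these fits and passed the threshold in the fit of unscaled TPM. From NP to LT without this animal the log2 change was -0.53 for C1S (limma adjusted P = 0.0205) and -0.81 for SERPING1 (limma adjusted P = 0.0184), 2 of 5 genes where 50.1% of all tested genes were lower, and with median-ratio scaling as well it was -0.12 and -0.40 (adjusted P = 0.554 and 0.178). For C1R it was -0.30 without this animal (limma adjusted P = 0.235), and 0.11 with the scaling as well.

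Levels of C1R, C1S and SERPING1 moved together over the animals. On log2(TPM + 1) the Pearson correlation over 10 animals was 0.945 between C1S and SERPING1, 0.895 between C1R and C1S and 0.831 between C1R and SERPING1. Without NP replicate 1 these values were 0.943, 0.854 and 0.767. The correlation of C7 was 0.537 with C1R, 0.260 with C1S and 0.0779 with SERPING1, and 0.577, 0.254 and 0.0219 without this animal. That of C2 was 0.619 with C1R, 0.683 with C1S, 0.844 with SERPING1 and -0.105 with C7. Without this animal the values of C2 were 0.396, 0.5025, 0.657 and -0.372. The values of an animal share its library and its tissue composition, so that these numbers are given as a description. Among all named genes, the closest to C1S were SERPING1 and CUEDC2 (0.938), the closest to SERPING1 were CUEDC2 (0.956) and MRPL55 (0.946), and the closest to C1R were CD68 (0.935) and DEK (0.915). The value for C1R and CD68 was 0.910 without NP replicate 1. CD68, a lysosomal protein that marks macrophages, was at 16.8, 75.1 and 84.8 TPM in the NP animals, 21.4, 35.7 and 23.7 TPM in those of MT and 63.1, 40.0, 68.0 and 37.1 TPM in those of LT. The summed level of 10 macrophage and monocyte markers was between 222 and 502 TPM in the NP animals, 209 and 248 TPM in those of MT and 281 and 462 TPM in those of LT. Of 9 tested, 0 were higher and 1 lower from NP to MT, 3 were higher and 0 lower from MT to LT, and 3 were higher and 1 lower from NP to LT. Of all tested genes, 6.27%, 6.73% and 11.2% were higher and 12.2%, 22.7% and 41.9% lower in these comparisons. The markers higher in LT than in MT and in NP were CD14, CD163 and MARCO. MARCO had stage means below the operational threshold in NP and MT and was tested only because of its LT level. Its rise to LT is thus not independent of this filter, whereas CD14 and CD163 were above the threshold in every stage. Without NP replicate 1, 5 of the 9 markers were lower from NP to MT, where 25.9% of all tested genes were in that fit, and 5 higher from MT to LT, where 9.72% were. The part of macrophages in the level of C1R was not tested.

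C2 (ENSCPOG00000021284) encodes the protease of the classical convertase. The NP animals had 19.98, 116 and 111 TPM, the MT animals 75.0, 87.0 and 83.4 TPM and the LT animals 125, 119, 66.4 and 57.0 TPM. The MT animals were close together, and the LT animals formed a higher and a lower pair, on either side of the MT range. The mean was 82.3 ± 54.0 TPM for NP (SD, n = 3), 81.8 ± 6.12 TPM for MT (SD, n = 3) and 91.8 ± 35.0 TPM for LT (SD, n = 4). Log2 changes were 0.35 from NP to MT (95% confidence interval -0.95 to 1.65, limma adjusted P = 0.703), 0.09 from MT to LT (-1.13 to 1.30, limma adjusted P = 0.923) and 0.43 from NP to LT (-0.79 to 1.65, limma adjusted P = 0.525). Without NP replicate 1 the first of these was -0.47 (limma adjusted P = 0.265) and the last was -0.38, or 0.020 with median-ratio scaling besides. The named genes closest to C2 over the 10 animals were C16orf54 (Pearson correlation 0.972) and ARMC9 (0.963), at 0.907 and 0.849 without this animal.

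C7 (ENSCPOG00000015671) encodes the component that anchors the growing attack complex in the membrane. It was at 6.73, 12.3 and 5.17 TPM in NP, at 2.79, 7.64 and 4.45 TPM in MT and at 4.37, 10.5, 29.9 and 16.4 TPM in LT. In MT the gene was thus around the operational threshold, with 116 to 321 reads per animal. In LT it ranged more widely than any of the other genes above the threshold relative to its mean, with 266 to 1955 reads, and LT replicate 1 lay within the MT range. The means were 8.07 ± 3.75 TPM for NP (SD, n = 3), 4.96 ± 2.47 TPM for MT (SD, n = 3) and 15.3 ± 10.9 TPM for LT (SD, n = 4).

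The log2 change of C7 between MT and LT was 1.26 (standard error 0.54, 95% confidence interval 0.06 to 2.45), with a limma adjusted P of 0.0999. It was called in DESeq2 (1.81, adjusted P = 0.00735) and in limma without LT replicate 1 (1.70, adjusted P = 0.0222). Without LT replicate 3, the animal with the highest level, it was 0.86 (limma adjusted P = 0.220), and its adjusted P was at most 0.261 in all alternative settings. The log2 change of C7 was -0.61 from NP to MT (limma adjusted P = 0.475) and 0.65 from NP to LT (limma adjusted P = 0.327).

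The order of the LT animals for C7 was shared by CFD. CFD, which encodes factor D of the alternative pathway and is abundant in fat, was at 63.0, 120, 525 and 263 TPM in LT replicates 1 to 4. The named genes closest to C7 were PRG4 (Pearson correlation 0.910) and PI16 (0.902). Smooth muscle markers summed to 19050, 19044, 38141 and 39435 TPM in the LT animals, which is another order, with replicates 3 and 4 above the others as for C7. A list of 7 adipocyte genes, chosen after the values were seen, had 3 tested members, of which 0 were higher and 1 lower from MT to LT, where 6.73% and 22.7% of all tested genes were. With median-ratio scaling or in edgeR 0 of the 3 were lower. Of its defining markers, ADIPOQ was at 0.114, 3.39, 1.58 and 0.855 TPM in the LT animals and at most 0.363 TPM in the other animals, and LEP was at 0, 2.03, 5.91 and 2.10 TPM in LT. FABP4, which is also expressed by endothelium, was at 203, 318, 520 and 380 TPM in LT, and LPL at 39.3, 61.9, 85.6 and 79.5 TPM. Of the 7 genes, LEP, FABP4 and LPL had the order of C7 among the LT animals, and ADIPOQ, PLIN1, CIDEC and PPARG did not. FGG, from the list of hepatocyte markers, also had this order, at 81.4, 89.5, 205 and 164 TPM. The share of all tested genes with this order was not computed, so these matches cannot be weighed. PPARG was at 5.85, 6.30, 4.71 and 5.55 TPM and CIDEC at 0.638, 1.57, 0.592 and 1.28 TPM, both lowest in LT replicate 3, where C7 was highest. FABP4 was at 712 TPM in NP replicate 1, and LPL at up to 207 TPM in MT. The part of these tissues in the level of C7 was not tested.

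C5 (ENSCPOG00000002250), whose cleavage releases the chemotactic fragment C5a and starts the attack complex, was at the limit of detection. In NP replicate 1 there were 2 reads and in the other NP animals 0, in the MT animals 0, and in the LT animals 2, 2, 1 and 1. A count of 0 allows a level of up to 3 reads, which corresponds to 0.0304 to 0.0418 TPM in the 5 animals without a read. These limits cover counting error only. No fold change is given for C5, since all groups were under this limit. Of the other terminal genes, C8A, C8B and C9 were also near 0. C8A was at most at 0.0121 TPM as a stage mean, C8B at 0.00821 TPM and C9 at 0.0256 TPM. Of 13 hepatocyte markers 10 have a row and 3 were tested, of which 0 were called from NP to MT or from MT to LT and 1, FGG, was higher from NP to LT (log2 change 2.49, limma adjusted P = 0.00501), where 11.2% of all tested genes were. Leaving out NP replicate 1, 2 of the 3 were higher from NP to MT, where 7.18% of all tested genes were, and 2 were higher and 1 lower from NP to LT, where 11.2% and 50.1% were. APOA2, TTR and FGB were listed at 0 in all 10 animals. The summed level of the list was between 14.7 and 68.7 TPM in NP and between 86.1 and 214 TPM in LT, most of which was FGG, for the fibrinogen gamma chain, at 29.5 ± 28.3 TPM for NP (SD, n = 3) and 135 ± 59.9 TPM for LT (SD, n = 4).

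The row CO3_CAVPO (ENSCPOG00000004199), for C3, on which all activation pathways converge, differed between NP and LT. It was at 6.57, 29.8 and 16.6 TPM in NP, at 31.8, 31.8 and 35.8 TPM in MT and at 82.7, 64.8, 42.7 and 26.0 TPM in LT. The MT animals all lay above the NP animals, and LT replicate 4 lay below the MT animals and below NP replicate 2. The mean was 17.7 ± 11.6 TPM for NP (SD, n = 3), 33.1 ± 2.34 TPM for MT (SD, n = 3) and 54.1 ± 24.8 TPM for LT (SD, n = 4). From NP to LT CO3_CAVPO rose by a log2 change of 1.66 (standard error 0.47, 95% confidence interval 0.62 to 2.70, limma adjusted P = 0.0138), and the adjusted P ranged from 4.36e-05 to 0.0382 over the alternative settings. This log2 change was 1.12 without NP replicate 1 (limma adjusted P = 0.0382). The log2 change was 1.09 from NP to MT (limma adjusted P = 0.151), or 0.55 without NP replicate 1 (limma adjusted P = 0.336), and 0.57 from MT to LT (limma adjusted P = 0.378). The exact permutation test of the F statistic gave an unadjusted P of 0.0452 and an adjusted P of 0.0792 for this row. The adjusted P of that test was 0.0403 with median-ratio scaling, 0.0302 without LT replicate 4 and 0.178 without NP replicate 1.

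The ratio of CO3_CAVPO to C2 was higher in each later stage, without overlap of the animals and without a test. This ratio, which was chosen after the values were seen, was between 0.149 and 0.329 in NP, between 0.365 and 0.430 in MT and between 0.456 and 0.664 in LT. The named gene closest to CO3_CAVPO was FGR (Pearson correlation 0.965, and 0.943 without NP replicate 1), for a kinase of myeloid cells.

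Other genes of the complement system were taken from a list of 54 names, of which 33 have a row and 19 were tested. From NP to MT 1 was higher and 1 lower, where 6.27% of all tested genes were higher and 12.2% lower. Between MT and LT 6 were higher and 4 lower, where 6.73% and 22.7% of all tested genes were, and from NP to LT 5 were higher and 5 lower, where 11.2% and 41.9% were. The median log2 change of the 19 genes was -0.35, 0.29 and 0.34 in the 3 comparisons. With median-ratio scaling 9 of the 19 were higher from NP to LT, where 26.3% of all tested genes were.

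**Figure D4:**
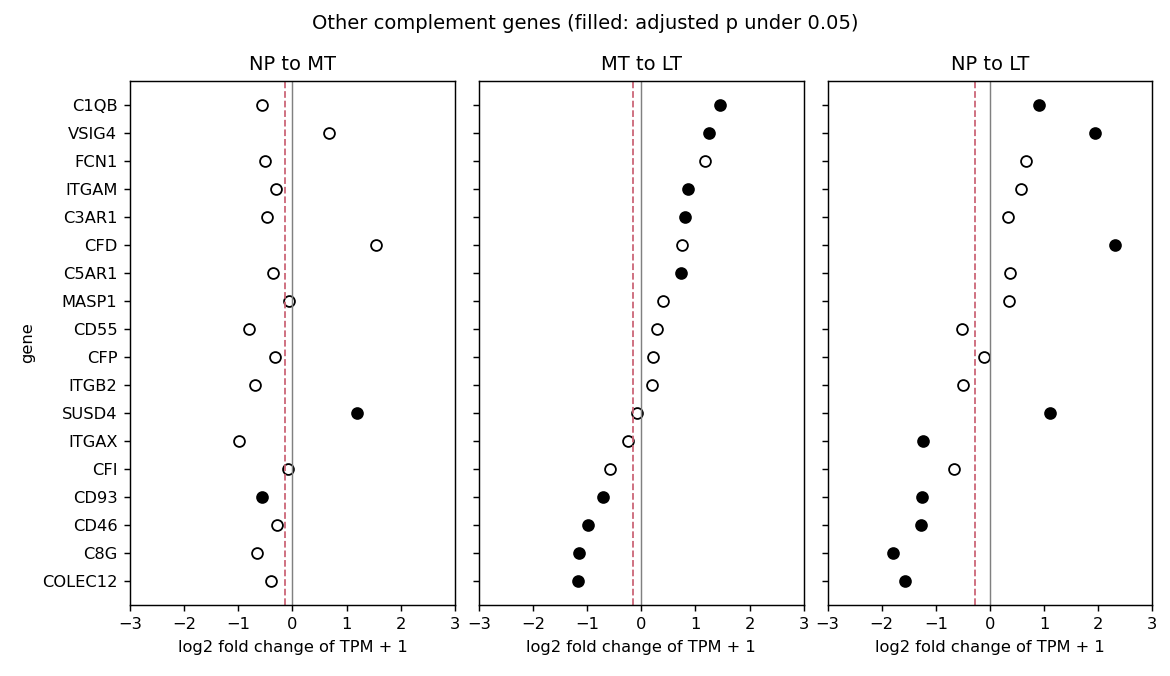
Log2 change of TPM + 1 (horizontal axes) of the other tested complement genes reported here in the 3 comparisons, in the order of their change from MT to LT. Filled points have a limma adjusted P under 0.05, the grey line is at 0 and the dashed red line is the median of all tested genes. From MT to LT C1QB and VSIG4 are at the top and COLEC12 and C8G at the bottom.

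In recognition and activation, C1QB, a chain of C1q, the part of C1 that binds targets, was at 85.4 ± 9.10 TPM for NP, 57.7 ± 5.52 TPM for MT and 164 ± 38.7 TPM for LT (SD, n = 3, 3 and 4). It rose from MT to LT by a log2 change of 1.46 (limma adjusted P = 0.00182), and was called in 22 of 22 alternative settings. Factor D, CFD, which cleaves factor B, rose from NP to LT by 2.30 on the log2 scale (limma adjusted P = 0.0126). COLEC12, a collectin of the cell surface, fell from MT to LT (log2 change -1.17, limma adjusted P = 0.0130), with an adjusted P of 0.0513 without MT replicate 2. MASP1, a protease of the lectin pathway, was at 30.3, 28.8 and 38.7 TPM and was not called, and MBL2 was listed at 0.

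Of the regulators on the cell membrane, CD46 was at 5.78, 4.21 and 1.60 TPM in NP, MT and LT. It fell from NP to LT (log2 change -1.27, limma adjusted P = 0.00587), in 21 of 21 alternative settings. From MT to LT its fall (-0.98, limma adjusted P = 0.0344) was called in 12 of 21 alternative settings. SUSD4 rose from NP to MT (1.20, limma adjusted P = 0.0129), with an adjusted P of 0.0546 when these 2 stages were fitted alone. SUSD4 also rose from NP to LT (1.12, limma adjusted P = 0.00400), in 22 of 22 alternative settings. CD55, which accelerates the decay of convertases, was the most abundant of this list, at 426 ± 240 TPM for NP, 223 ± 48.5 TPM for MT and 271 ± 43.1 TPM for LT, and was not called. NP replicate 1 had 701 TPM of CD55 and the other NP animals 315 and 261 TPM.

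Of the 7 tested receptors, 4 rose from MT to LT, where 6.73% of all tested genes were higher. With median-ratio scaling 4 were higher too, where 14.6% of all tested genes were. They were VSIG4, a macrophage receptor for fragments of C3 (log2 change 1.25, limma adjusted P = 0.00751), C3AR1 and C5AR1, the receptors of C3a and C5a (0.80 and 0.73, limma adjusted P = 0.0166 and 0.0192), and ITGAM, the alpha chain of complement receptor 3 (0.87, limma adjusted P = 0.0206). Over the alternative settings their adjusted P reached 0.0522 for VSIG4, 0.0578 for C3AR1, 0.0850 for C5AR1 and 0.0626 for ITGAM. All 4 calls were lost with the replicate number as a block, although the numbers did not pair the animals. The call of C3AR1 was lost without MT replicate 3, that of C5AR1 without MT replicate 3 or LT replicate 3, and that of ITGAM without MT replicate 1 or 2. C5AR1 was around the operational threshold, at 3.10, 2.18 and 4.27 TPM in NP, MT and LT. CD93, which is expressed by endothelium, fell (log2 change -0.71, limma adjusted P = 0.00668), as did 6 of 7 endothelial markers, where 22.7% of all tested genes were lower. With median-ratio scaling 4 of the 7 were lower, where 14.8% of all tested genes were. The decrease of CD93 from NP to MT (-0.55, limma adjusted P = 0.0297) was called in 11 of 22 alternative settings. Between MT and LT the macrophage marker CD163 rose from 5.03 to 27.8 TPM (log2 change 2.14, limma adjusted P = 0.00395). With CD14 and MARCO it was among the 3 of 9 tested macrophage and monocyte markers that were higher. The others were not called, with log2 changes from 0.11 for AIF1 to 0.91 for CD68. As stated above, MARCO was tested only because of its LT level, so its rise is not independent of the filter. From NP to LT 3 of the 9 were higher and 1, AIF1, was lower (-0.89, limma adjusted P = 0.0159). Of 8 tested lymphocyte and neutrophil markers, 2 were higher and 0 lower from MT to LT, where 6.73% and 22.7% of all tested genes were. They were CSF3R, a receptor of neutrophils (log2 change 1.16, limma adjusted P = 0.0391), and S100A8, which neutrophils and squamous epithelium express (1.40, limma adjusted P = 0.0118). S100A9 was not called (0.07, limma adjusted P = 0.832). The median log2 change of the 8 markers was -0.32, below the -0.16 of all tested genes. Without NP replicate 1, 2 of 9 tested were higher and 2 lower, where 9.72% and 32.4% of all tested genes were. MPO, for myeloperoxidase of neutrophil granules, was at most at 0.120 TPM as a stage mean. The part of macrophages and neutrophils in the levels of the receptors was not tested. ITGAX fell from NP to LT (-1.24, limma adjusted P = 0.0169), and its adjusted P reached 0.114 over the alternative settings, which include leaving out NP replicate 2 or 3. Its stage mean reached the operational threshold in NP and was below it in MT and LT. ITGAX was thus tested only because of its NP level, and its fall from NP is not independent of this filter. NP replicate 1 lay within the range of the MT animals for this gene. In the terminal pathway C8G, at 6.34, 3.38 and 0.931 TPM in NP, MT and LT, fell from NP to LT (log2 change -1.80, limma adjusted P = 0.00288). Its adjusted P between MT and LT was 0.0420 and it was called in 10 of 21 alternative settings.

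Interferon and acute-phase signals are known to induce complement genes. Of 13 tested transcription factors and targets of these signals, 0 were higher and 8 lower from NP to MT, where 6.27% and 12.2% of all tested genes were, and the median log2 change of the 13 was -0.60. Between MT and LT 2 were higher and 0 lower, with a median of 0.09, where 6.73% and 22.7% of all tested genes were. From NP to LT 1 was higher and 7 lower, where 11.2% and 41.9% were. With median-ratio scaling 1 was higher and 4 lower from NP to MT, where 10.9% and 7.15% of all tested genes were, and 2 were higher and 2 lower from NP to LT, where 26.3% and 23.4% were. The counts from NP to MT were 0 higher and 8 lower without NP replicate 1, where 7.18% and 25.9% of all tested genes were. Members differed in NP replicate 1, where ISG15, an interferon target, was at 865 TPM against 212 and 60.0 TPM in the other NP animals, and IRF1, a transcription factor of the interferon response, at 52.4 TPM against 65.5 and 75.0 TPM. The part of these signals in the levels of the complement genes was not tested.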

How the data were processed

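Per the labels and the study's methods, cervical RNA was sequenced in strand-specific single reads of 75 bases, and the authors aligned the reads to the Ensembl guinea pig genome cavPor3.69 with TopHat2 and counted them with HTSeq 0.5.4p1. CASAVA 1.8.2 stands in the submitters' processing notes. The authors deposited raw read counts per gene and TPM, which they made from the counts by gene length.

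From the deposited TPM, log2(TPM + 1) of 10 animals was fitted with limma 3.58.1 in R 4.3.3, with 3 stages and no covariate. Benjamini-Hochberg adjustment was over all genes whose stage mean reached 3 TPM in any stage. The exact permutation test of F on square-root TPM was two-sided by construction. Alternatives were edgeR 4.0.16 and DESeq2 1.42.0 on the deposited counts, other scalings and filters, and leaving out each animal. Counts of marker lists under other settings were added after seeing the data. The scripts were tested on simulated data.

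The members and the gene lists were chosen with earlier results of these data known. Named are all members, other complement genes past the threshold in at least 1 comparison or naming an arm near 0, and for each member the 2 most correlated named genes. CD55, MASP1 and the markers CD68, CD163, CD14, MARCO, AIF1, FGG, LEP, FABP4, LPL, ADIPOQ, PLIN1, CIDEC, PPARG, ISG15, IRF1, CSF3R, S100A8, S100A9 and MPO were named after their values were seen. C3, CD46, CD55, C3AR1, C5AR1 and ITGAM were found under UniProt entry names. Animals came from a commercial supplier and were caged individually, and each is taken as a separate replicate. No 2 libraries held equal counts. A gene of the list of other complement genes is included in its counts and medians and is not reported here by name.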

Additional observations from a re-analysis of the deposited data

How the results depend on the processing

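The directions and calls of C7 from NP to MT and from NP to LT, and of CO3_CAVPO in all 3 comparisons, were kept in 22 of 22 alternative settings each. With 3 or 4 animals a stage, the 95% confidence intervals of C1R, C1S, C2 and SERPING1 include 0, and the reads of C5 limit it to detection.

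When each animal was left out in turn, 0 to 3 of the 5 genes were called lower from NP to MT, 0 to 1 higher from MT to LT, 0 to 2 lower from NP to LT, and 0 to 2 passed the exact test. All called genes numbered 1099 to 4202 from NP to MT, 1944 to 5354 from MT to LT and 5279 to 7794 from NP to LT. Of the other complement genes 1 was higher and 0 to 5 were lower from NP to MT, 4 to 7 were higher and 1 to 4 lower from MT to LT, and 5 to 6 were higher and 4 to 6 lower from NP to LT.

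From MT to LT 2 of the 5 genes were higher in DESeq2, and 1 was higher without NP replicate 1 in edgeR or with median-ratio scaling, 2 fits that were chosen after seeing the data. Fitting the 2 stages alone called 1113 genes from NP to MT. Of the other complement genes from NP to MT, 2 were higher with quantile normalization or DESeq2 and 0 in the fit of 2 stages, while 0 were lower with median-ratio scaling or edgeR, and 2 in DESeq2 or without NP replicate 1 with median-ratio scaling. From MT to LT 2 were lower on square-root TPM, with the filter at 10 TPM or with quantile normalization. From NP to LT 9 were higher with median-ratio scaling (also without NP replicate 1), quantile normalization, edgeR or DESeq2, and 2 were lower with the filter at 10 TPM. The causes were not tested.

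Some log2 changes of genes that were not called changed sign. From NP to MT, C2 was at -0.47 without NP replicate 1, at -0.25 with median-ratio scaling besides and at -0.27 in edgeR without this animal, and SERPING1 was at 0.23, 0.12 and 0.11 without NP replicate 2, NP replicate 3 or MT replicate 1. From MT to LT, C1S was at -0.054 without MT replicate 1, C2 at -0.088 and -0.07 without LT replicate 1 or 2, and SERPING1 at -0.070 with quantile normalization, -0.25 without MT replicate 1 and -0.09 without LT replicate 1. From NP to LT without NP replicate 1, C1R was at -0.30 and C2 at -0.38. C1S was at 0.16 with median-ratio scaling, 0.075 in edgeR, 0.078 in DESeq2, and 0.0075 and 0.016 without NP replicate 2 or 3, and SERPING1 was at 0.19 with median-ratio scaling and at 0.25 and 0.14 without NP replicate 2 or 3. Over the animals left out in turn, these values ran from -0.47 to 0.77 for C2 and from -0.83 to 0.23 for SERPING1 between NP and MT, from -0.054 to 0.28 for C1S, from -0.088 to 0.28 for C2 and from -0.25 to 0.20 for SERPING1 between MT and LT, and from -0.30 to 0.37 for C1R, from -0.53 to 0.016 for C1S, from -0.38 to 0.85 for C2 and from -0.81 to 0.25 for SERPING1 between NP and LT.

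Replicate numbers did not pair the animals, since deviations from the stage means correlated between -0.287 and 0.254 in 9 pairs with the same number and between -0.271 and 0.311 in 24 pairs with different numbers. With the replicate number as a block, 0 of the 5 genes were called, 1693 genes were called from MT to LT, and of the other complement genes 0 were lower from NP to MT, and 2 were higher and 2 lower from MT to LT.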
